A study of Rattus norvegicus with 10 samples.

Results

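The proteasome genes of rat muscle were taken by name from the table of protein-coding features: a symbol beginning with Psma, Psmb, Psmc or Psmd and a digit, without the immunoproteasome genes Psmb8, Psmb9 and Psmb10, and a mean of at least 1 CPM (counts-per-million) over the 10 libraries. The rule took 35 of 22250 protein-coding features. Of these, 14 genes encode the core particle (Psma and Psmb) and 20 (Psmc and Psmd) are counted as the regulatory cap. The cap count includes 3 assembly chaperones, Psmd5, Psmd9 and Psmd10, which are not subunits of the finished particle. The remaining one, Psmc3ip, matches by name but encodes a protein of meiotic recombination, so it is kept apart. Psma8 and Psmb11 matched the pattern and fell under the level required, at means of 0 and 0.0055 CPM, while the lowest gene inside it, Psmd10, averaged 2.09 CPM.

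The muscle RNA came from Sprague Dawley rats in a study of myofascial pain syndrome, a disorder of painful, taut spots in skeletal muscle, and of Tianhe Zhuifeng liquid extract, a herbal preparation. There were 4 libraries labelled NC (4, 5, 6 and 7), 3 labelled MPS (10, 11 and 14) and 3 labelled TZG (26, 27 and 43), whose titles call them drug. The labels do not spell out NC or TZG, name no muscle, age, sex, dose or time, and do not say whether the TZG rats carried the pain model or whether the libraries come from separate animals, so p-values measure the spread between these libraries only. The total counts per library ranged from 12616160 to 18179144.

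The proteasome degrades proteins that carry ubiquitin. Its core is a barrel of stacked rings: outer alpha rings (Psma) that gate entry and inner beta rings (Psmb), of which Psmb5, Psmb6 and Psmb7 hold the chymotrypsin-like, caspase-like and trypsin-like active sites. The cap has a base, with a ring of ATPases (Psmc) that unfold substrates and the large scaffold and ubiquitin-binding subunits Psmd1, Psmd2 and Psmd4, and a lid, in which Psmd14 cuts ubiquitin chains off. Psmd5, Psmd9 and Psmd10 are chaperones that help assemble the base and leave the finished particle. In skeletal muscle the pathway is known for breaking down fibre proteins during wasting.

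One library has to be described before the comparisons. In MPS 14 the summed level of 8 skeletal muscle fibre markers was 6159 CPM, against 106268 to 163321 CPM in the other 9 libraries, and the sum of 10 lymphocyte markers was 2644 CPM against 1.45 to 5.46 CPM. None of these 18 markers was at 0 in MPS 14. Transcripts of the mitochondrial genome took 9.71% of its counts, and 18.7% to 38.6% in the others. Fits of MPS are therefore given with and without MPS 14, a choice made with values of this library already known from earlier results of these data. Slow fibre markers, 10 genes, also differed between libraries of one group. They summed to 1744, 3512 and 909 CPM in MPS 10, 11 and 14. The sum was 3927 CPM in TZG 27 and 148 to 236 CPM in the other 6 libraries. Tpm3 and Atp2a2, at 547 and 237 CPM, made up most of the sum in MPS 14, where Myh7 was 41.0 CPM. TZG 43, among those 6, held Myh7 at 26.8 CPM, against 0.147 to 3.05 CPM in NC. Its Atp2a2 was lower than in NC, at 59.2 CPM against 99.7 to 151 CPM. Macrophage markers, 9 genes, summed to 257 to 590 CPM in NC, 116 and 97.9 CPM in MPS 10 and 11, 6306 CPM in MPS 14 and 101 to 333 CPM in TZG, and 7 fibroblast markers to 1284 to 2925 CPM in NC, 874 and 758 CPM in MPS 10 and 11, 2402 CPM in MPS 14, and 776, 1026 and 4506 CPM in TZG 26, 27 and 43. Both sums were thus lower in MPS 10 and 11 than in every NC library. Within TZG 43 the collagens Col1a1, Col3a1 and Col1a2 gave 1899, 1381 and 760 CPM of the fibroblast sum. Pdgfra and Dcn, at 14.4 and 393 CPM there, lay below all NC libraries. Within MPS 14, Lyz2 gave 5323 CPM of the macrophage sum. Cd163, at 5.57 CPM there, lay below all NC libraries and the other macrophage markers above them. In TZG 43 the 4 endothelial markers summed to 102 CPM, against 317 to 727 CPM elsewhere. The part of these lists in the results below was not tested.

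All 35 genes were expressed in every library, the lowest count being 20, and together they took between 0.242% (TZG 43) and 0.728% (NC 7) of all counts. On the deposited scale per gene length (FPKM), Psma7 was the highest gene, with a median over libraries of 308 FPKM. The beta subunits Psmb4 and Psmb1 followed at 272 and 260 FPKM. At the other end stood the assembly chaperones Psmd5 at 7.52, Psmd9 at 6.86 and Psmd10 at 3.48 FPKM, well below every structural subunit, of which the lid scaffold Psmd11 was lowest at 16.6 FPKM. Core subunits sit in the particle in equal numbers, yet their median FPKM differed 14.7-fold between Psma7 and Psma4. Psma4 and Psma3l, the lowest core genes, also carry the longest annotated gene lengths of the core, 5473 and 3829 bases. Psmd11 likewise carries the longest of the cap, 3954 bases, and FPKM divides by that length. The files name the gene of the alpha subunit 3 Psma3l, which RefSeq lists as a synonym of Psma3. RefSeq also lists pseudogenes named after 14 of the 35 genes, among them 7 for Psmb3 and 5 for Psma6, and how reads shared with such copies were counted is not given in the sources used here.

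**Figure D1:**
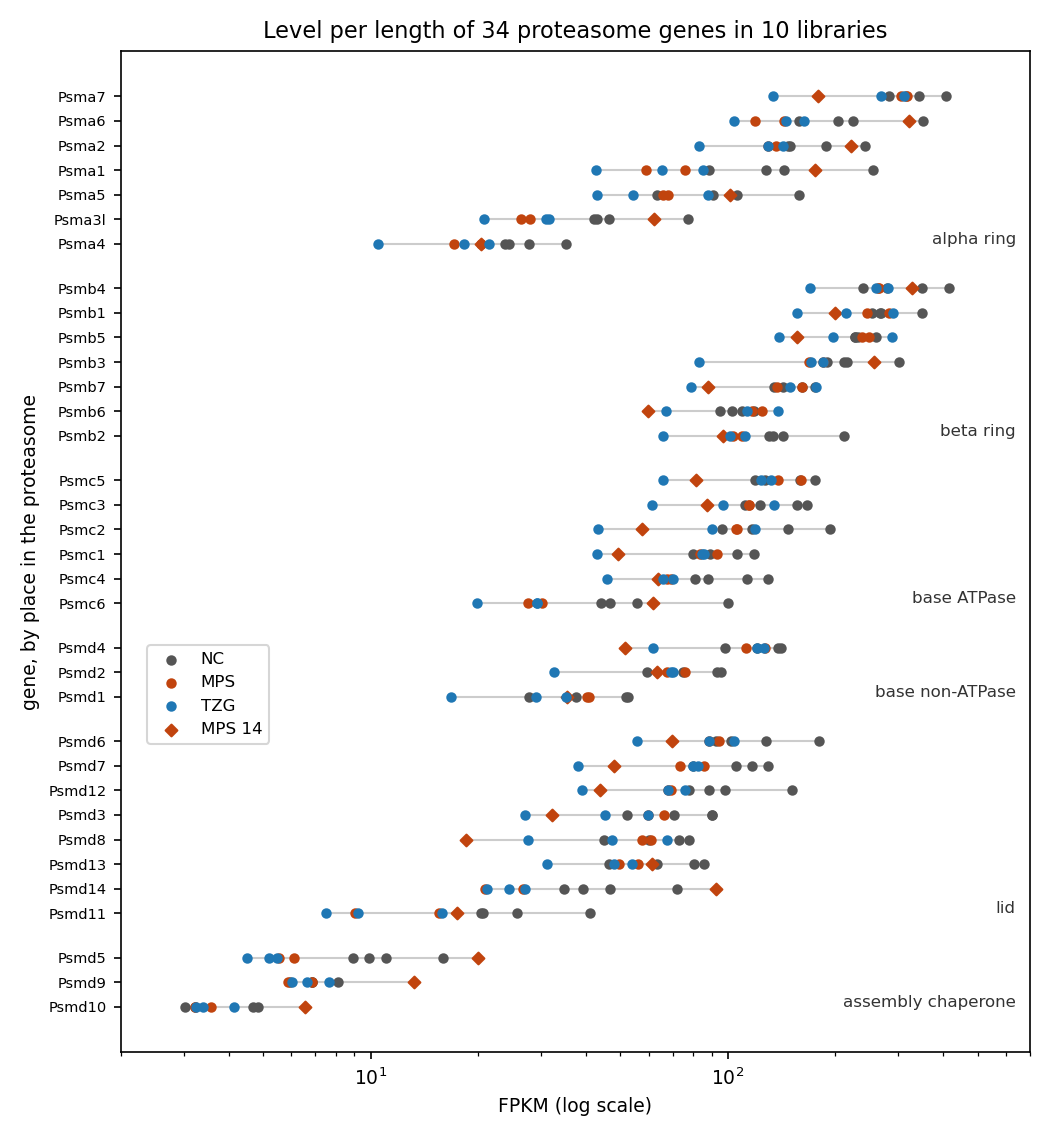
FPKM on a log axis for the 34 core and cap genes in each of the 10 libraries, with 1 point per library and a grey line over the gene's range. The chaperones Psmd5, Psmd9 and Psmd10 lie below the structural subunits, and the TZG 43 library is the leftmost blue point of most genes, though not of Psmd5.

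Sequences just before the start sites are shown for 5 genes whose values are described below: Psma1, Psmc6 and Psmd11, which had the lowest fold changes for MPS over NC without MPS 14, and the catalytic Psmb5 and Psmb6, whose fold changes there were above 0. They were chosen after their values were seen. Each run is the RefSeq sequence of assembly GRCr8 from 250 bases before the start to 50 after, 5′ to 3′ on the gene's strand. Capitals mark the letters TGACNNNGC, a minimal antioxidant response element of the kind bound by Nfe2l1 and Nfe2l2, and CCAAT, the box bound by NF-Y, on either strand.
Psma1 (GRCr8 chr1:177887808-177888107, minus strand): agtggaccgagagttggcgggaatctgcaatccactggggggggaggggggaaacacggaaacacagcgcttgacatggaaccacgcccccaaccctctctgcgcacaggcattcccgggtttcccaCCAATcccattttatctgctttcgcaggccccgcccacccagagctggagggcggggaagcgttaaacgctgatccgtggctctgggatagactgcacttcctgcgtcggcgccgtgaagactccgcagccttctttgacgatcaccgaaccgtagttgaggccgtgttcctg
Psmc6 (GRCr8 chr15:21022064-21022363, plus strand): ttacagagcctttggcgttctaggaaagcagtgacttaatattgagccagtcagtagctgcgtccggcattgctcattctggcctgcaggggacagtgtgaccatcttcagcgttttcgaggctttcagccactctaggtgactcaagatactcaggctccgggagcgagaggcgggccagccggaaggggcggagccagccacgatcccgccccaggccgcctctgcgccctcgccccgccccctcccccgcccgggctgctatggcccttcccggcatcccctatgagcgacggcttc
Psmd11 (GRCr8 chr10:65932093-65932392, plus strand): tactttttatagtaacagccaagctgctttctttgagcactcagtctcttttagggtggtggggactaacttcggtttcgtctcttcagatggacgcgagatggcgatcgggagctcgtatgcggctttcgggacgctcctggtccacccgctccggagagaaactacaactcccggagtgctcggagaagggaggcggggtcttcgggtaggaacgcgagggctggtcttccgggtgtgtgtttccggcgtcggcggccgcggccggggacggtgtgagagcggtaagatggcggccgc
Psmb5 (GRCr8 chr15:32047330-32047629, minus strand): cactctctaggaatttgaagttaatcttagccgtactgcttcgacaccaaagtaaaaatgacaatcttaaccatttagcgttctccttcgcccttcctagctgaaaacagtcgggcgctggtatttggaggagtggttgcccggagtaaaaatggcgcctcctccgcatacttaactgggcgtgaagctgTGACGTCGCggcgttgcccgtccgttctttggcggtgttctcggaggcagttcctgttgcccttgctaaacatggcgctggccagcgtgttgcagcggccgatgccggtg
Psmb6 (GRCr8 chr10:55737638-55737937, plus strand): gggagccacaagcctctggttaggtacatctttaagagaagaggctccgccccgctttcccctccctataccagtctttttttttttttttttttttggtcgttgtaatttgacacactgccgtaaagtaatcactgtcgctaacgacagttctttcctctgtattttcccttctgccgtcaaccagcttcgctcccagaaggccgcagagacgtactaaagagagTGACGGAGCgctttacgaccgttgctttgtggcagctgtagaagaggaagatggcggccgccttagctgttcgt
Psmb5 and Psmb6 each held 1 TGACNNNGC, at -60 to -52 and -24 to -16 counted with the start site as 0, and Psma1 held 1 CCAAT at -123 to -119. The windows of Psmc6 and Psmd11 held neither.

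Promoter sequences were found for 31 of the 35 genes, and 30 of them belong to core or cap genes. TGACNNNGC stood in 7 of the 30, or 23.3%, against 12.1% of all 33469 promoters of the same length, and in 4 of 13 core and 3 of 17 cap promoters. CCAAT stood in 16 of 30, or 53.3%, against 37.5%, with 9 of 13 core and 7 of 17 cap promoters. In all, 8 motifs were searched, and these 2 are marked because their factors are on the list of regulators of subunit genes. The other 6 were TGACTCAGC (0 of 30, against 0.415% of all promoters), the nuclear respiratory factor motif (5 of 30, against 4.25%), the GC box GGGCGG (21 of 30, against 33.1%), the E box CACGTG (4 of 30, against 6.42%), the ETS motif CCGGAAG (10 of 30, against 8.75%) and the YY1 motif AAGATGGCG (7 of 30, against 1.73%). A match describes the letters in the window and no binding was measured.

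The comparison of MPS with NC asks whether the pain model changed the subunit genes. Without MPS 14, 6 of the 7 alpha ring genes had log2 fold changes below 0 and 4 of the 7 beta ring genes above 0, the catalytic ones among them, and 0 of the 35 genes passed the test (edgeR quasi-likelihood with Benjamini-Hochberg adjustment, smallest adjusted p = 0.181, for Psmc6), against 2.64% of all 13719 genes tested. DESeq2 and limma-voom also called 0. An unadjusted p under 0.05 was reached by 6 of the 35, all lower in MPS, while 8.57% of all genes were lower at that level. The median log2 fold change was -0.14 over the core and -0.05 over the cap, and -0.02 over all genes; 19 of the 34 core and cap genes lay below 0, against 51.8% of all genes.

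Psmc6, an ATPase of the base on chromosome 15, had the smallest p. Its normalised CPM (CPM of the library total scaled by TMM factors, from the fit of all 10 libraries unless stated) was 106.1, 106.4, 108.5 and 222.1 in NC 4 to 7, then 70.3, 83.4 and 84.3 in MPS 10, 11 and 14. In TZG 26, 27 and 43 it was 83.7, 75.2 and 68.1. On this scale all 6 MPS and TZG libraries lay below all 4 NC libraries, and NC 7 stood far above the other NC libraries. On unscaled CPM, MPS 14 lay at 147.0, above NC 4, 5 and 6, and the other MPS and TZG libraries stayed below all NC libraries. The log2 fold change of MPS over NC was -0.82 ± 0.32 (SE, n = 2 and 4, edgeR adjusted p = 0.181) without MPS 14 and -0.78 ± 0.32 (n = 3 and 4, edgeR adjusted p = 0.447) with it, and without NC 7 the first became -0.49 (edgeR adjusted p = 0.227).

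Psma1, an alpha ring subunit on chromosome 1, measured 142.7, 105.3, 138.5 and 279.8 normalised CPM in NC 4 to 7. It measured 74.2, 103.3 and 117.9 in MPS 10, 11 and 14 and 120.2, 83.3 and 72.3 in TZG 26, 27 and 43. On this scale the groups overlapped except for MPS without MPS 14, and NC 7 stood far above the other NC libraries. The log2 fold change of MPS over NC without MPS 14 was -0.91 ± 0.38 (edgeR adjusted p = 0.214), and -0.56 when NC 7 was left out as well. With MPS 14 it was -0.76 ± 0.38 (edgeR adjusted p = 0.493). Psma3l, its neighbour in the ring, measured 157.3, 164.4, 146.5 and 276.5 in NC, 114.6, 117.5 and 136.4 in MPS, and 146.0, 128.9 and 114.5 in TZG. Here too every MPS and TZG library lay below every NC library on normalised CPM, although TZG 26 came within 1 unit of NC 6. On unscaled CPM, MPS 14 lay at 237.7, above NC 4, 5 and 6. Its log2 fold change without MPS 14 was -0.68 ± 0.27 (edgeR adjusted p = 0.195), and -0.44 without NC 7. With MPS 14 it was -0.60 ± 0.29 (edgeR adjusted p = 0.491).

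Psmd14, the deubiquitinase of the lid on chromosome 3, measured 59.2, 55.8, 60.8 and 107.0 normalised CPM in NC, 35.5, 49.1 and 84.1 in MPS 10, 11 and 14, and 51.6, 42.0 and 48.1 in TZG. MPS 14 was the exception among the libraries outside NC. The log2 fold change of MPS over NC was -0.74 ± 0.29 without MPS 14 (edgeR adjusted p = 0.181) and -0.33 ± 0.35 with it (edgeR adjusted p = 0.748), and without NC 7 the first became -0.49. Psmd11, which helps hold the lid together, measured 96.8, 82.9, 66.1 and 152.3 in NC, 38.5, 71.5 and 39.5 in MPS, and 43.9, 67.9 and 42.8 in TZG. MPS 11 and TZG 27 lay above NC 6, so the groups overlapped on this scale, but not on unscaled CPM. The log2 fold change of MPS over NC was -0.85 ± 0.37 without MPS 14 (edgeR adjusted p = 0.226) and -0.998 ± 0.37 with it (edgeR adjusted p = 0.415). The base chaperone Psmd5 measured 33.1 in NC 7 and at most 20.9 in the other NC libraries, 13.1, 15.7 and 25.3 in MPS, and 12.0, 12.5 and 17.4 in TZG. Its log2 fold change of MPS over NC was -0.70 ± 0.28 without MPS 14 (edgeR adjusted p = 0.186) and -0.38 ± 0.31 with it (edgeR adjusted p = 0.668).

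With TMM scaling the catalytic subunits had fold changes above 0 without MPS 14, and none passed. Psmb6 measured 70.3, 69.2, 64.5 and 79.0 normalised CPM in NC, 95.8 and 97.7 in MPS 10 and 11, and 24.6 in MPS 14. In TZG 26, 27 and 43 it measured 119.8, 88.2 and 69.1. On this scale MPS 10, MPS 11, TZG 26 and TZG 27 lay above all NC libraries, TZG 43 within their range and MPS 14 below all others. On unscaled CPM, MPS 11 lay at 84.0, under NC 7 at 84.6. Without MPS 14 the log2 fold change was 0.46 ± 0.22 (edgeR adjusted p = 0.269), the highest of the 35 genes, and with MPS 14 it was 0.04 ± 0.42 (edgeR adjusted p = 0.981). Psmb5 measured 189.1, 201.6, 166.1 and 212.5 in NC, 232.3, 240.9 and 78.2 in MPS, and 303.3, 186.7 and 174.3 in TZG. Its log2 fold change without MPS 14 was 0.30 ± 0.24 (edgeR adjusted p = 0.513), and with it the direction turned, at -0.07 ± 0.40 (edgeR adjusted p = 0.965). Psmb7 measured 262.9, 265.8, 257.3 and 317.6 in NC, 285.9, 362.5 and 97.7 in MPS, and 413.0, 314.4 and 219.4 in TZG, and its groups overlapped. Its log2 fold change turned in the same way, from 0.24 ± 0.25 (edgeR adjusted p = 0.639) without MPS 14 to -0.15 ± 0.43 (edgeR adjusted p = 0.923) with it. On unscaled CPM, MPS 10 and 11 lay within the NC range for Psmb5 (216 and 207, against 198 to 227). The same held for Psmb7 (266 and 312, against 262 to 340).

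**Figure D2:**
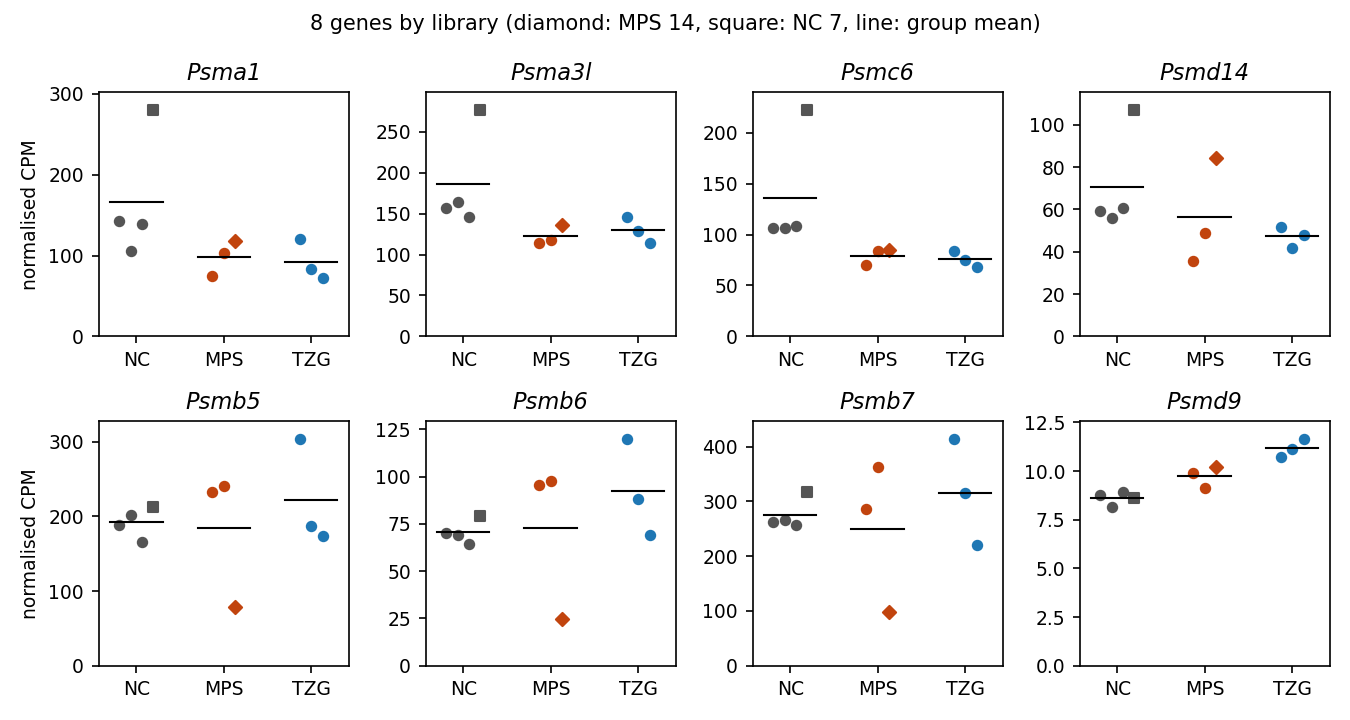
Normalised CPM of 8 proteasome genes in each library, by group, with the group mean as a line. On this scale Psmc6 and Psma3l show every MPS and TZG library under every NC library, while Psmb5, Psmb6 and Psmb7 show MPS 14 (diamond) far below MPS 10 and 11.

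Counted over core and cap, 6 of the 34 genes (Psma1, Psma3l, Psmc4, Psmc6, Psmd14 and Psmd5) were lower in both remaining MPS libraries than in all NC libraries on normalised CPM, and 4 (Psmb5, Psmb6, Psmd4 and Psmd9) were higher, while among all genes 18.6% were lower and 20.1% higher in the same way. Normalised CPM in these counts used the TMM factors of the fit of 9 libraries. On unscaled CPM 13 were lower and 0 higher, against 31.6% and 9.44% of all genes, so these counts depend on the scaling. The median log2 fold changes by part of the particle were -0.36 for the 7 alpha genes, 0.16 for the 7 beta genes, -0.05 for the 6 ATPases, 0.22 for the other 3 base subunits and -0.17 for the 8 lid genes. With MPS 14 they were -0.47, -0.17, -0.42, -0.18 and -0.45 in the same order, so the beta genes and the other base subunits turned, and no difference between parts was tested. With MPS 14 included, 0 of 35 passed again (edgeR, smallest adjusted p = 0.415, for Psmd11), as did 0% of all 13535 genes, and DESeq2 and limma-voom called 0 of the 35. At an unadjusted p under 0.05, 2 of the 35 were lower (Psmd11 and Psmc6), against 3.26% of all genes. The medians were then -0.24 over the core and -0.33 over the cap, with 31 of 34 genes below 0, against 0.13 and 40.7% for all genes. Without overlap, 4 genes were lower (Psma3l, Psmc4, Psmc6 and Psmd12, background 5.72%) and 1 was higher (Psmd9, background 5.27%) on normalised CPM, and on unscaled CPM 5 were lower and 0 higher, against 5.96% and 3.51%.

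**Figure D3:**
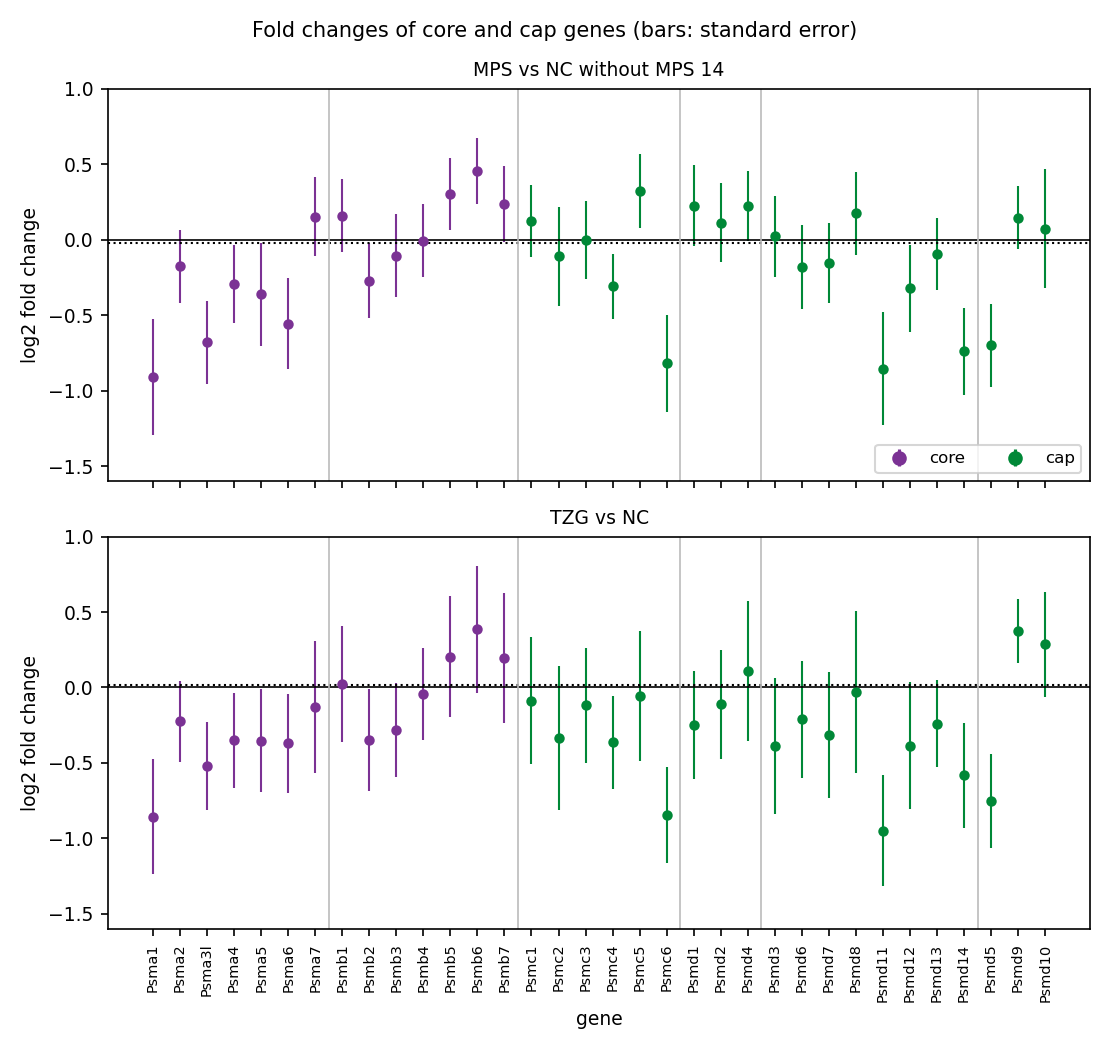
Log2 fold changes with standard errors for the 34 genes, ordered by place in the particle (grey lines part the blocks), for MPS over NC without MPS 14 (2 against 4 libraries) and TZG over NC (3 against 4, from the fit of all 10 libraries); the dotted line is the median of all genes tested. Core and cap genes overlap in both panels, with Psma1, Psmc6 and Psmd11 lowest and Psmb6 high in each; both panels share the NC libraries.

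For TZG against NC, 0 of the 35 genes passed (edgeR, smallest adjusted p = 0.879), like 0% of all genes, and 0 passed with DESeq2 or limma-voom. An unadjusted p under 0.05 was reached by Psmc6, Psmd11, Psmd5 and Psma1, all lower in TZG, against 2.19% of all genes lower at that level. Psmc6 had a log2 fold change of -0.84 ± 0.32 (n = 3 and 4, edgeR adjusted p = 0.879), and of -0.50 without NC 7. The median was -0.25 over the core and -0.25 over the cap, and 0.02 over all genes, and 27 of 34 genes lay below 0, against 48.7% of all genes. Leaving out NC 7 brought the medians to -0.06 and -0.11, and leaving out TZG 43 to -0.07 and -0.06. Without overlap, 5 genes were lower in TZG (Psma3l, Psmc4, Psmc6, Psmd14 and Psmd5, background 8.23%) and Psmd9 was higher (background 9.18%) on normalised CPM. On unscaled CPM 12 were lower and 0 higher, against 24.4% and 1.4% of all genes. The base chaperone Psmd9 measured 8.8, 8.1, 8.9 and 8.6 normalised CPM in NC, 9.9, 9.1 and 10.2 in MPS and 10.7, 11.2 and 11.6 in TZG. Its 3 groups did not overlap, in the order NC, MPS, TZG, but on unscaled CPM they did, and the log2 fold change of TZG over NC was 0.37 ± 0.21 (edgeR adjusted p = 0.879). Except where a library is said to be left out, these fits were of all 10 libraries. Without MPS 14, which is in neither group, 0 of the 35 passed again (edgeR, smallest adjusted p = 0.148, for Psmd5). Of all 13719 genes tested there, 9 passed higher and 2 lower. An unadjusted p under 0.05 was reached by 5 of the 35, all lower, while 985 of the 13719 genes were lower at that level.

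Between TZG and MPS, 0 of the 35 genes passed (edgeR, smallest adjusted p = 0.832), against 0% of all genes, 0 reached an unadjusted p under 0.05, against 5.17% of all genes, and DESeq2 and limma-voom called 0. The core and cap medians were 0.14 and 0.18, against -0.05 for all genes, with 7 of 34 genes below 0, against 53.8%. Without MPS 14 they were -0.05 and -0.11, against 0.02, with 27 of 34 genes below 0, against 47.5%, so their direction turned without that library. It also turned without TZG 26 (-0.06 and -0.05) and when libraries were scaled by totals without mitochondrial transcripts (-0.10 and -0.12). Of the 34 genes Psmd9 alone was higher in every TZG than in every MPS library, with and without MPS 14 (background 2.32% and 7.35%). With MPS 14, 0 genes were lower in every TZG library, and without it Psmd1 was (background 2.98% and 8.37%). Normalised CPM in the counts without MPS 14 used the TMM factors of the fit of 9 libraries. On unscaled CPM 0 were higher both times (background 0.643% and 4.35%), and 2 were lower with MPS 14 and 4 without it (background 7.29% and 11.6%). Without MPS 14 too, 0 of 35 passed (edgeR, smallest adjusted p = 0.979), against 0.00729% of all genes, 0 reached an unadjusted p under 0.05, against 4.18%, and DESeq2 and limma-voom called 0. The lowest log2 fold change there was that of the base scaffold Psmd1, at -0.47 ± 0.28 (n = 3 and 2), and the highest that of Psmd9, at 0.24 ± 0.22. With MPS 14 they were -0.18 ± 0.38 and 0.20 ± 0.22 (n = 3 and 3). A p that misses the threshold does not show that the groups are alike.

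Libraries of one group differed from one another. NC 7 was the highest of the 10 libraries in normalised CPM for 24 of the 34 genes, and MPS 14 the lowest for 23. On unscaled CPM the lowest library was TZG 43, for 27 of 34 genes, and in this library mitochondrial transcripts took 38.6% of counts and the TMM factor was 0.70. Summed over the core, the level was 2354, 2395, 2301 and 3474 normalised CPM in NC, 2376, 2604 and 1429 in MPS 10, 11 and 14, and 3017, 2263 and 1860 in TZG. The cap sums were 2328, 2102, 2441 and 3323 in NC, 2246, 2598 and 1008 in MPS, and 2644, 2158 and 1605 in TZG. Both sums were highest in NC 7 and lowest in MPS 14 and TZG 43, both share the scaling of each library, and the ranges of the 3 groups overlapped for each.

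**Figure D4:**
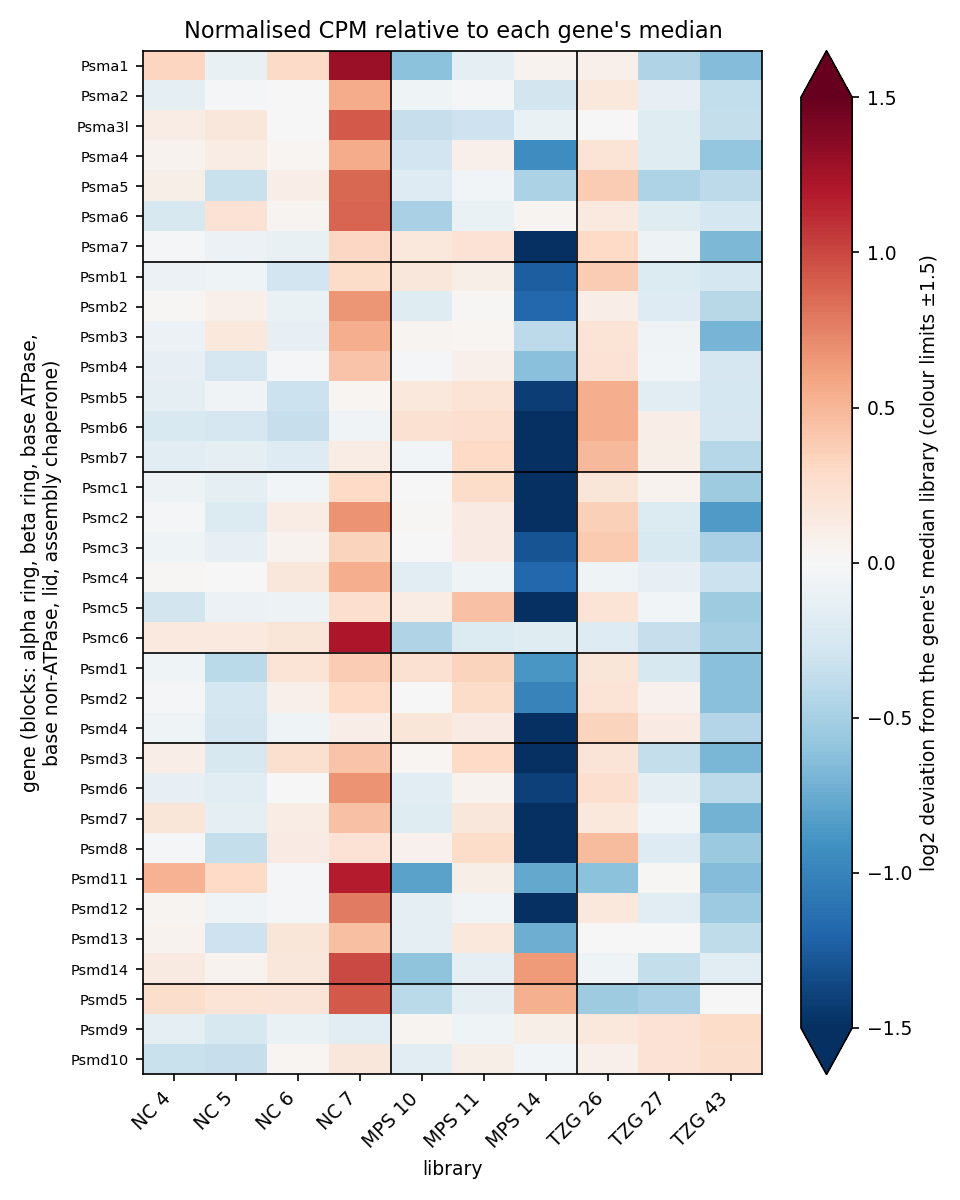
Log2 deviation of normalised CPM from each gene's own mean log2 value over the libraries other than MPS 14 (called median on the figure). Genes are in rows by place in the particle and libraries in columns, with colours limited to ±1.5. NC 7 is red for most genes and MPS 14 blue for most. Psmd14 and Psmd5 are the clear red exceptions in MPS 14, and Psmd9, Psma1 and Psma6 lie slightly above 0 there.

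Ratios within a library do not depend on its scaling. The summed CPM of the core divided by that of the cap was 1.01, 1.14, 0.942 and 1.05 in NC 4 to 7, 1.06 and 1.002 in MPS 10 and 11, and 1.14, 1.05 and 1.16 in TZG 26, 27 and 43. These 9 overlapped between groups, and MPS 14 stood above them at 1.42. Within the core, the alpha ring divided by the beta ring gave 0.842, 0.828, 0.899 and 1.05 in NC, 0.653, 0.694 and 1.20 in MPS 10, 11 and 14, and 0.680, 0.710 and 0.709 in TZG. All 3 TZG libraries, MPS 10 and MPS 11 lay below the 4 NC libraries, and MPS 14 lay above all. The means were 0.906 ± 0.103 (SD, n = 4) in NC and 0.700 ± 0.017 (SD, n = 3) in TZG. The lid divided by the beta ring gave 0.734, 0.616, 0.775 and 0.806 in NC, 0.548, 0.623 and 0.586 in MPS, and 0.540, 0.601 and 0.560 in TZG, where MPS 11 overlapped NC 5. These ratios of chosen genes are described and carry no test.

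**Figure D5:**
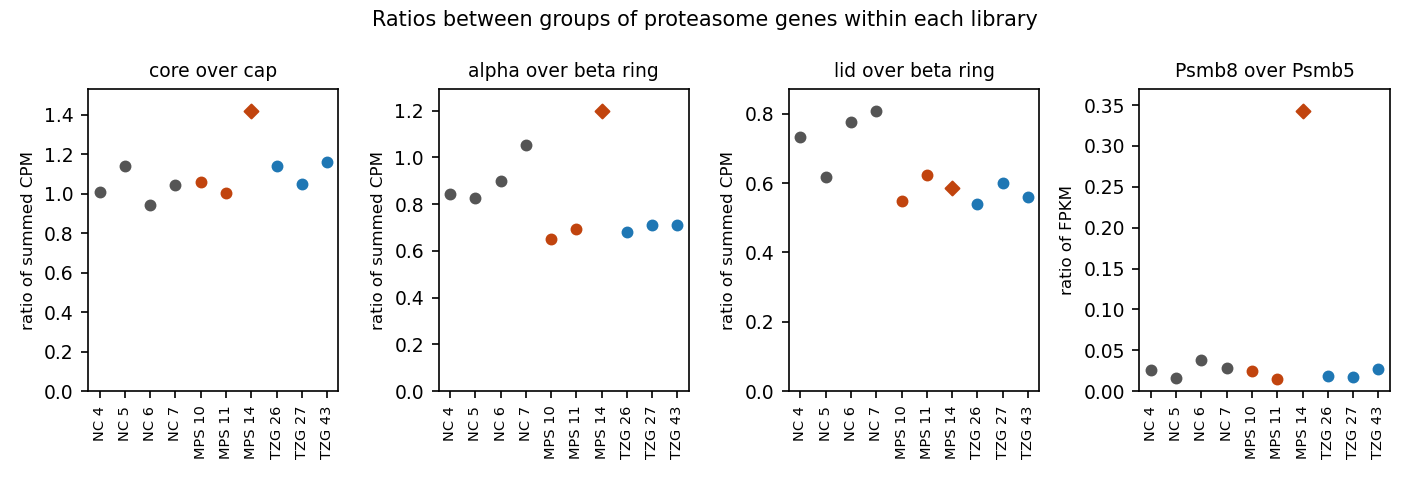
Ratios of summed CPM (core over cap, alpha over beta ring, lid over beta ring) and of FPKM (Psmb8 over Psmb5) in each library, MPS 14 as a diamond. The alpha over beta ratio of NC (0.828 to 1.05) lies above TZG (0.680 to 0.710) and above MPS 10 and 11, and Psmb8 over Psmb5 is 0.342 in MPS 14.

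The level of MPS 14 depends on its TMM factor of 1.74, by which CPM is divided to give normalised CPM. On unscaled CPM its core sum was 2491, above 2214 and 2239 in MPS 10 and 11, its cap sum was 1758, below 2093 and 2234, and 27 of the 34 genes lay within the range of the other 9 libraries. It lay above the other 9 for Psmd14, Psmd5, Psmd9 and Psmd10, and below them for Psmb6, Psmd4 and Psmd8, which is 4 and 3 of 34 genes, while 54.5% and 16.5% of all genes lay above and below. Psmd14 reached 146.7 CPM there against a median of 42.8 CPM in the others, and Psmd8, a lid subunit, 28.0 CPM against 91.5 CPM. Immunoproteasome genes replace the catalytic subunits in immune cells and after interferon. Per length, Psmb8 over Psmb5 was 0.342 in MPS 14 and 0.0148 to 0.0380 in the other 9 libraries. Psmb9 over Psmb6 was 1.34 against 0.0810 to 0.204, and Psmb10 over Psmb7 was 2.08 against 0.139 to 0.293. In bulk RNA, a change in which cells are present and a change of RNA per cell cannot be told apart. Lymphocyte markers move with these ratios in MPS 14, as given above, and their part was not tested.

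Around the proteasome, 52 genes in 8 lists were read: immunoproteasome genes and their activator, other activators and the inhibitor, assembly factors, cap-bound factors, regulators of subunit genes, ubiquitin genes, shuttle and unfolding factors, and ubiquitin ligases of muscle wasting. Without MPS 14, 1 of the 52, Sem1, rose in MPS over NC and 0 fell, against 2.24% and 0.401% of all genes. Sem1, the smallest subunit of the lid, which the name rule leaves out, measured 85.0, 79.3, 75.2 and 79.9 normalised CPM in NC, 162.3 and 162.2 in MPS 10 and 11, 26.95 in MPS 14, and 191.9, 113.9 and 104.2 in TZG. MPS 10, MPS 11 and all TZG libraries lay above all NC libraries and MPS 14 below. On unscaled CPM, TZG 43 lay at 72.5, below all NC libraries, and its TMM factor was 0.70.

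The log2 fold change of Sem1 was 1.03 ± 0.24 (SE, n = 2 and 4, edgeR adjusted p = 0.0452). In edgeR the call needed robust estimation of the spread, a setting taken after others had been compared: without it the edgeR adjusted p was 0.0505. Sem1 also passed with DESeq2 (adjusted p = 0.00311) and limma-voom (adjusted p = 0.0477). Leaving out any one library of either group put it above 0.05, at an edgeR adjusted p of up to 0.296. With MPS 14 included it was 0.55 ± 0.51 and did not pass (edgeR adjusted p = 0.713), nor did it for TZG over NC, at 0.77 ± 0.51 (edgeR adjusted p = 0.885).

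None of the other 51 list genes passed in any of the 5 comparisons by edgeR. Psme4, an activator that caps the core in place of the regulatory particle, measured 209.3, 348.0, 337.1 and 544.5 normalised CPM in NC, 163.5, 157.6 and 122.8 in MPS, and 192.5, 155.4 and 113.4 in TZG. All MPS and TZG libraries lay below all NC libraries on this scale, with a log2 fold change of -1.16 ± 0.35 for MPS over NC without MPS 14 (edgeR adjusted p = 0.105), -1.28 ± 0.38 with it (edgeR adjusted p = 0.398) and -1.23 ± 0.37 for TZG over NC (edgeR adjusted p = 0.865). DESeq2 called Psme4 in the former (DESeq2 adjusted p = 0.0161). Nfe2l1, the factor that raises subunit genes when the proteasome is blocked, had a log2 fold change of 0.55 ± 0.20 for MPS over NC without MPS 14 (edgeR adjusted p = 0.150) and 0.27 ± 0.29 with it (edgeR adjusted p = 0.756). In normalised CPM it measured 19.8 to 24.4 in NC, 29.3 and 34.5 in MPS 10 and 11, and 14.8 in MPS 14. The wasting ligase Trim63 measured 145.5 to 193.6 in NC, 326.0 and 281.6 in MPS 10 and 11, and 8.96 in MPS 14. Its log2 fold change was 0.80 ± 0.31 without MPS 14 (edgeR adjusted p = 0.183) and 0.24 ± 0.83 with it (edgeR adjusted p = 0.936). For both genes MPS 14 lay below all NC libraries on this scale and the other MPS libraries above. On unscaled CPM, Trim63 kept this order and Nfe2l1 did not. There Nfe2l1 was 27.3, 29.70 and 25.9 CPM in MPS 10, 11 and 14, all within the NC range of 20.8 to 29.72 CPM. Fbxo32, another wasting ligase, had -1.04 ± 0.68 without MPS 14 (edgeR adjusted p = 0.421) and -1.41 ± 0.66 with it (edgeR adjusted p = 0.479), and all 3 MPS libraries lay below all NC libraries.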

How the data were processed

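Per the labels' protocols, muscle RNA was taken up with RNeasy columns and libraries were built with SMARTER mRNA-Seq chemistry. The authors deposited a count per gene and library and, per the file headers, FPKM, which equalled counts over gene length and library total within 0.1% in 100% of values of 50 or more counts. Named without a role in the submitters' processing notes are edgeR 3.30.3, StringTie 1.3.3b, HISAT2 and fastp; the genome build and the counting of shared reads are not given in the sources used here, so no coordinates of the deposited genes are printed. A second deposited table with the same content was not used.

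Counts were tested in R 4.3.3 with edgeR 4.0.16 (quasi-likelihood, filterByExpr, TMM, 3 groups in 1 fit over 10 libraries, or 9 without MPS 14), with two-sided p adjusted over all genes by Benjamini-Hochberg and a threshold of 0.05. The fitting code was tested on simulated data. Robust estimation of the spread and full library totals were not part of the written design: several settings were tried and these were taken because they gave the gene counts of earlier processing of these data. Without robust estimation 326 genes, not 362, passed for MPS against NC without MPS 14, and 0 of the 35 either way. The members and lists were chosen with earlier results of these data known, and 1 gene of the lists is not reported here and stays out of their counts. Psmc3ip was set apart after the mean levels of the candidates had been seen. Genes given by library are the catalytic subunits and those with extreme fold changes or unadjusted p. The written design also takes Psma7, Psmd1, Psmd10, Psmc5, Psmd3, Psma6 and Psmc3ip, by extreme fold change or FPKM, and these are not given by library. Most members that it does not take are not given by library either. Promoter motifs were searched after the values were known. Alternatives were RLE factors, totals without mitochondrial transcripts, DESeq2 1.42.0, limma-voom (limma 3.58.1), no filter, the compared groups only and leaving out each library. Figures were drawn with matplotlib 3.10.9.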

Additional observations from a re-analysis of the deposited data

Results flagged for a closer look

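Among the 4 NC libraries, NC 7 stood apart from the other 3 by more than Dixon's 95% critical value for 10 of 37 values tested (gap to the nearest library over the range), and chance flags about 1 in 20. In normalised CPM, NC 7 held 222 for Psmc6 (the next library had 109), 33.1 for Psmd5 (20.9), 107.0 for Psmd14 (60.8) and 277 for Psma3l (164). It also held 197 for Psma2 (135), 229 for the lid subunit Psmd6 (143), 318 for Psmb7 (266), 277 for the lid subunit Psmd12 (166) and 180 for Psma4 (132), and the summed core reached 3474 (2395). All 10 lay above the other NC libraries. These genes share a library, so the flags are not independent. Without NC 7, Psmc6, Psma3l and Psma1 still had log2 fold changes of -0.49, -0.44 and -0.56 for MPS over NC without MPS 14 (edgeR adjusted p = 0.227, 0.276 and 0.333).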

How the results depend on the processing

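In all 5 comparisons, 0 of the 35 genes passed under every alternative run, DESeq2 and limma-voom included, and leaving out each library gave 0 to 0. Scaling by totals without mitochondrial transcripts lowered the core and cap medians in all 5 comparisons, most in TZG over NC, to -0.62 and -0.61, while the median of all genes went from 0.02 to -0.34, and in MPS over NC without MPS 14, to -0.45 and -0.36, while all genes went from -0.02 to -0.33. When each library was left out in turn, the core and cap medians ranged from -0.50 to -0.10 and from -0.60 to -0.05 for MPS over NC, from -0.06 to 0.33 and from -0.11 to 0.41 for TZG over MPS, and from -0.44 to -0.06 and from -0.42 to -0.06 for TZG over NC. Without MPS 14 they ranged from -0.23 to 0.01 and from -0.15 to 0.08 for MPS over NC, with the highest value without NC 7, and from -0.30 to 0.08 and from -0.29 to 0.01 for TZG over MPS, with the highest without TZG 43. Leaving out 1 library thus turned all 4 of these medians without MPS 14, the cap in MPS over NC also without MPS 10 (0.08), the core in TZG over MPS also without MPS 11 (0.0062), and both medians of TZG over MPS, without MPS 14 or TZG 26. Totals without mitochondrial transcripts turned the last 2 as well, to -0.10 and -0.12, and counting Psmc3ip in the cap brought MPS over NC without MPS 14 to 0.00019; the cause was not tested. Omitting either remaining MPS library leaves a lone sample assumed to vary like the other groups.

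The summed core of TZG over MPS was 0.847 times as high in CPM, 1.11 in normalised CPM and 0.930 without mitochondrial transcripts. For MPS over NC without MPS 14, Sem1 passed under 5 of 13 alternatives. The number of genes passing there was 362, with 1100 by DESeq2, 1278 with the compared groups only, 226 without mitochondrial transcripts and 2 to 97 with a library left out. Alternatives added after the data were seen (no robust estimation, the cap without chaperones or with Psmc3ip, TZG over NC without MPS 14) changed no call among the 35. No paired analysis was possible because the groups share no replicate numbers. With 2 to 4 libraries a group, small changes can be missed, and the size of change that could be detected was not calculated.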
